A study of Mus musculus with 139 samples.

Results

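Lungs of mice that had breathed in only the vehicle were compared 12 months and 1 month after that single dose, which shows how expression in whole lung changed over most of a year with no fibres present. All 16 arrays labelled with the vehicle at these times were used, 8 per group, 1 array a mouse, making 2 of the 18 groups of the series, and 22180 genes with a feature of their own were tested. The series followed inflammation, fibrosis and gene expression in mouse lung up to 12 months after multi-walled carbon nanotubes (MWCNT, rigid carbon fibres) at 4 doses or crocidolite asbestos. Mice of every group used here were male C57BL/J6 (the strain as the labels spell it), were 7 weeks old when obtained, were kept 1 per cage and were given the liquid once under isoflurane by pharyngeal aspiration, where a droplet at the base of the tongue is breathed in. The vehicle, a dispersion medium (DM), was phosphate-buffered saline without calcium and magnesium that held glucose, mouse serum albumin and the surfactant lipid dipalmitoylphosphatidylcholine. The 2 main groups thus differ in the months since aspiration and in age, which cannot be told apart, nor can either be told apart from whatever else differed between the days on which the groups were killed. Mice that had received nothing were not analysed here. The 8 DM mice of 6 months and the mice given 1 µg or 10 µg MWCNT, killed at 1 or 12 months, served as further comparisons.

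The lung of a young adult mouse still matures: the matrix of collagen and elastic fibres that gives the alveolar wall its strength and recoil is laid down during growth and is turned over slowly later. The airways are lined by secretory club cells and by multiciliated cells, whose cilia beat through dynein motors that slide microtubule doublets past each other, held in order by radial spokes and a central pair. Long-lived lymphocytes and antibody-secreting cells are known to gather in the lung with age.

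Levels are log2 values, so that a difference of 1 is a doubling of signal, and each difference is given as 12 months minus 1 month with its standard error (SE) in the model. The arrays carried the lung's own markers at high levels: Sftpc, a surfactant protein of type 2 alveolar cells, was at 12.42 to 12.68 in the 1-month mice and at 12.44 to 12.54 in the 12-month mice, and Scgb1a1, the club cell secretory protein, at 12.55 to 12.76 and 12.55 to 12.79. Some lungs also carried markers of neighbouring tissue. Acta1, the skeletal muscle actin, was at 10.40, 9.31 and 7.11 in 1-month replicates 2, 8 and 1 and at 7.92 in 12-month replicate 2, while the other 12 arrays lay between 3.40 and 5.02. Krt4, a keratin of squamous epithelium, was at 12.11 in 1-month replicate 2 and at 4.11 or less elsewhere. The thymus genes Dntt and Ptcra stayed at 2.46 or less and 4.02 or less, and the lymph node vessel gene Glycam1 at 4.12 or less. Each array's median correlation with all other arrays was 0.969 to 0.985, apart from 12-month replicate 2 at 0.961. An unexplained word, replacement, stands in the titles of 4 of the 8 1-month arrays and 3 of the 8 12-month arrays.

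Over the year 151 genes rose and 97 fell at an adjusted p under 0.05 (limma, Benjamini-Hochberg over all genes), which is 0.681% and 0.437% of the genes tested and 1.12% together. The differences were small: the median was 0.63 among the genes that rose, or 1.55-fold, and 0.55 in size among those that fell, or 1.46-fold, and 13 genes moved by a doubling or more. Cilium genes such as Rsph1 and Daw1 were among those that rose, and Col3a1, Eln and Igf1 among those that fell. All 8 mice of 12 months lay above all 8 of 1 month for 24 of the genes that rose, against 0.135% of all genes, and below them for 18 of those that fell, against 0.108% of all genes. The sign of these 248 genes was the same in arrays with and without the word replacement. Medians were 0.57 and 0.62 among the genes that rose and -0.59 and -0.51 among those that fell. Both subsets are parts of the 16 arrays on which the genes were chosen. A shared sign is therefore favoured by that choice and is no independent support. Arrays without the word alone called 29 genes higher and 34 lower, and arrays with it 1 and 0. The model takes 1 spread from all 18 groups. Fitted on the 16 arrays alone, 18 of the 54 named genes past the test no longer passed: Sult1d1, Efcab10, Sprr1a, H2bc12, Prdm8, Gzmk, Siglecf, Cd24a, Kit, Cxcl14, Col1a1, Col1a2, Col14a1, Hspg2, Igfbp7, Lamp3, Npas2 and Bhlhe41 (adjusted p 0.0699 to 0.17, limma). Without the 3 muscle-bearing 1-month lungs (replicates 1, 2 and 8), 8 no longer passed: Igh-VS107, Sprr1a, Gzmk, Siglecf, Igfbp7, Lamp3, Col14a1 and Npas2 (adjusted p 0.0543 to 0.181, limma). The counts moved with single arrays. Without 12-month replicate 2, 308 genes rose, and without 1-month replicate 3, 12-month replicate 7 or 12-month replicate 6, 67, 72 and 93 did, while 58 fell without 1-month replicate 4. With arrays centred on their medians 207 rose and 212 fell, so that 49.4% of the called genes were higher, against 60.9%.

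**Figure D1:**
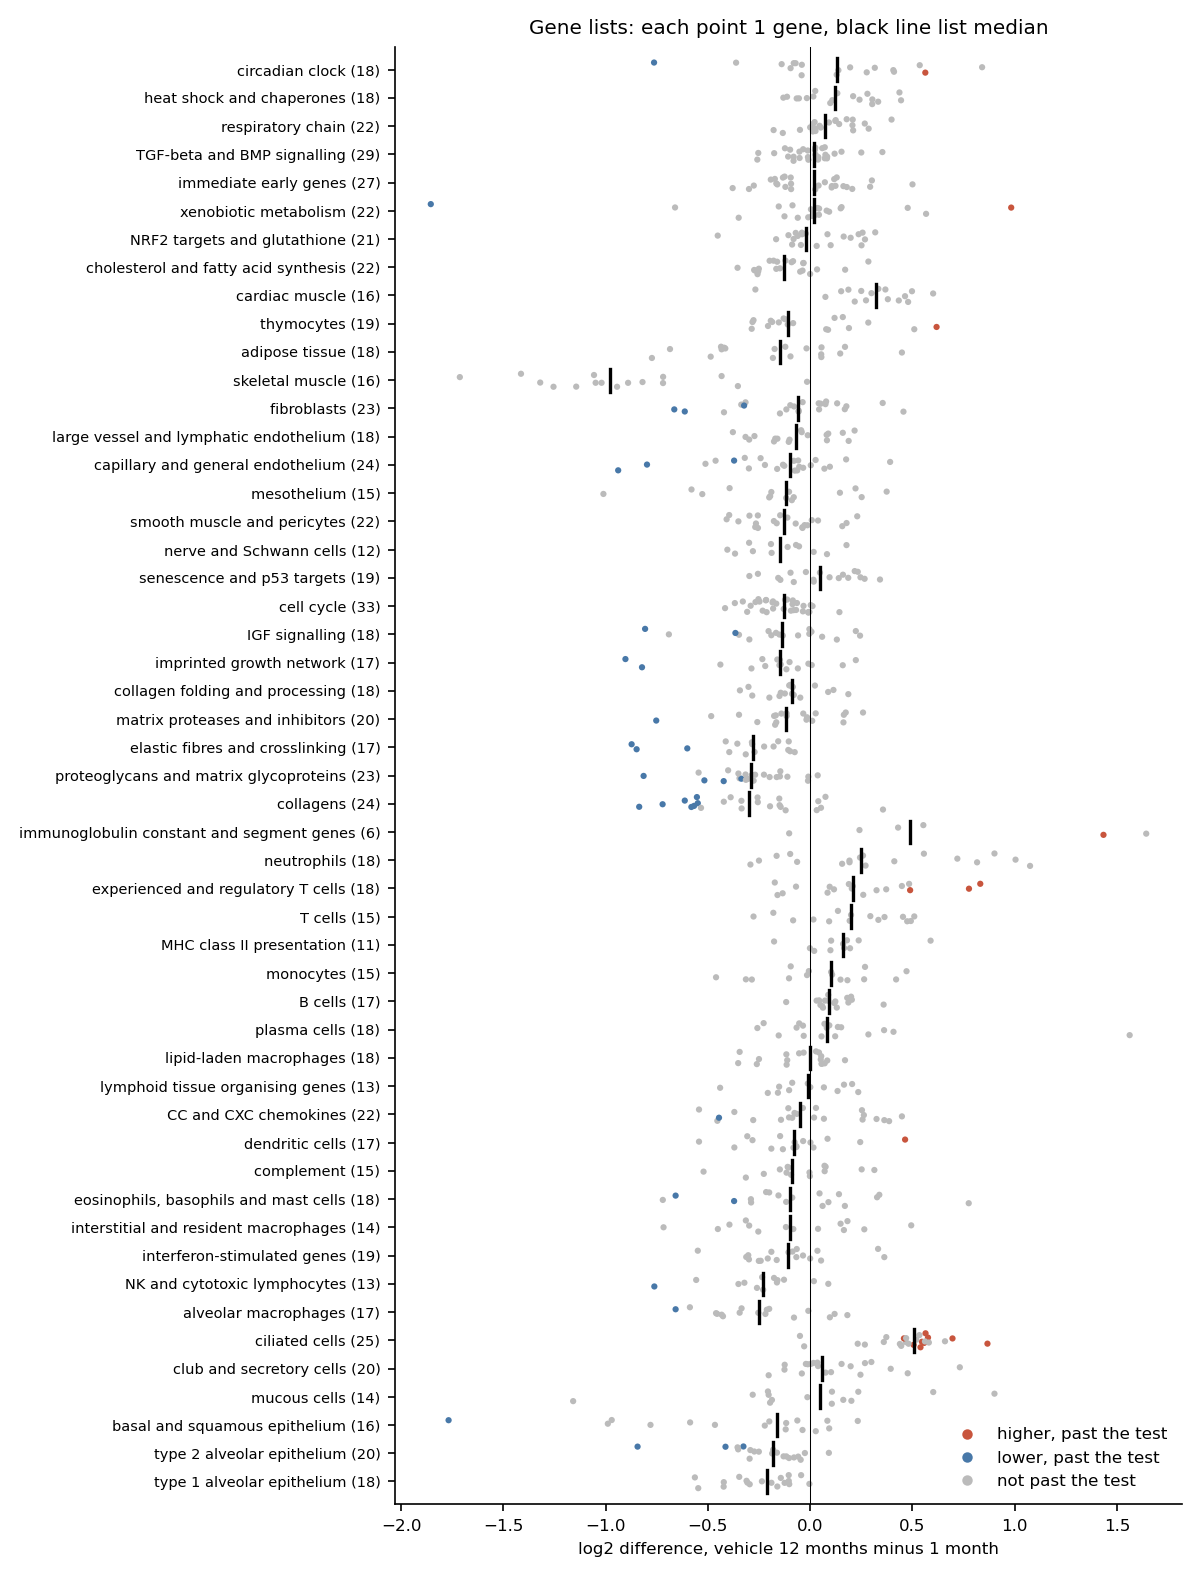
Log2 difference (12 months minus 1 month) of each measured member of the gene lists, with the number of members beside each list name. Red and blue points passed the test as higher and lower, grey points did not, and the black line is the list median, which was 0.51 for ciliated cells, -0.30 for collagens and -0.98 for skeletal muscle.

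Of the 51 gene lists, that of ciliated cells held the most genes that rose. In the list of 25 ciliated cell genes 9 rose and 0 fell, beside 0.681% of all genes, with a list median of 0.51 against 0.00 over all genes. A wider reading of the 151 genes by hand, made after their values were seen, put 58 of them (38.4%) among genes of the cilium, its basal body or its transport, with a median difference of 0.62. Neither all genes nor any other theme was read by hand in this way, so that percentage has no background beside it. The DNA before several genes that rose holds a motif known as the X-box, to which regulatory factor X (RFX) proteins bind and which is a known feature of cilium promoters. In RefSeq promoters of GRCm38.p6, 250 bases before to 50 after the gene start, the inverted repeat GTNNCCNNGGNNAC was found on either strand in 15 promoters of genes that rose, 12.7% of those in the table, in 0 of the 80 of genes that fell and in 2.37% of all 16990. It was in 6 of the 50 promoters (12.0%) of the cilium genes picked by hand, a share no higher than among all genes that rose, and in 4 of the 21 (19%) of the ciliated list. The promoters of Ccpg1 and Ccpg1os, both counted, overlap and hold the same site. The shorter word GTTGCC, which can lie inside the longer one, was in 30.5% of the promoters of genes that rose, in 13 of the 80 (16.2%), in 19 of the 50 (38%) picked by hand, in 12 of the 21 of the ciliated list (57.1%) and in 14.1% of all. These are matches of letters chosen with the list of genes known, not measured binding. Stretches of 60 bases around the longer motif, in capitals, are shown for 6 cilium genes that rose, to show where the match lies; the letters that the motif fixes are the same in each because they were searched for.
Iqca, chr1:90153500-90153559, minus strand: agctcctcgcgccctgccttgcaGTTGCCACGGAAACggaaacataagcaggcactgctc
Daw1, chr1:83159733-83159792, plus strand: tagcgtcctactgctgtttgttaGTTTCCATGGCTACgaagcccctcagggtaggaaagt
Lrriq1, chr10:103236305-103236364, minus strand: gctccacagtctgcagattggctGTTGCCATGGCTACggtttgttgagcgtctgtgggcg
Ccdc151, chr9:22002632-22002691, minus strand: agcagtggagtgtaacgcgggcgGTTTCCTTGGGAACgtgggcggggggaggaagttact
Cfap206, chr4:34730193-34730252, minus strand: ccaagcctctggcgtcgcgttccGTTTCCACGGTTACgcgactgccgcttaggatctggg
Ttc29, chr8:78213278-78213337, plus strand: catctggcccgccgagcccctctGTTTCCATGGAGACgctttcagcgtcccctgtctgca
These 6 genes rose by 0.88 (Iqca), 0.87 (Daw1), 0.76 (Lrriq1), 0.57 (Ccdc151), 0.57 (Cfap206) and 0.54 (Ttc29).

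Among the parts of the ciliary machine, Rsph1, a head protein of the radial spoke, was at 6.09, 6.64 and 6.92 (lowest, median and highest) in the 1-month mice and at 7.06, 7.48 and 7.73 in the 12-month mice. The groups did not overlap, and the difference was 0.87 ± 0.15 (SE; adjusted p = 0.000237, limma). Daw1, an assembly factor of dynein arms, was at 3.53, 4.01 and 4.41 and then at 4.54, 4.86 and 5.17, again with no overlap (0.87 ± 0.17, adjusted p = 0.00159). The motors themselves rose as well. Of the axonemal dynein heavy chains, Dnah5 rose by 0.56 ± 0.13, Dnah9 by 0.58 ± 0.14 and Dnah11 by 0.51 ± 0.14, and of the intermediate chains Dnaic1 and Dnaic2 rose by 0.55 and 0.54. Dnah5 was at 6.71, 7.11 and 7.63 at 1 month and at 7.45, 7.62 and 8.05 at 12 months, where 3 of 8 mice lay above every younger mouse, since 1 younger mouse was high. Hydin, a protein of the central pair, was at 6.47, 6.87 and 7.10 and then at 7.09, 7.39 and 7.59, with 7 of 8 mice above every 1-month mouse. Tekt1, a filament protein inside the doublets, and Tmem212 rose by 0.46 and 0.70 without overlap of the groups.

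Several cilium genes were among the 15 largest rises past the test. Bbof1, which orients basal bodies, was at 4.42, 5.34 and 5.74 in the 1-month mice and at 5.63, 6.28 and 6.54 in the 12-month mice (1.02 ± 0.18, adjusted p = 0.000278), and its groups met only through 12-month replicate 2. Morn5, at 3.04, 3.87 and 4.07 and then at 4.11, 4.69 and 5.25, did not overlap (0.96 ± 0.19). Stmnd1 rose by 1.04 ± 0.22, Efcab10 by 0.95 ± 0.24, Ccdc33 by 0.89 ± 0.16 and Iqca by 0.88 ± 0.17. The averaged features of Ccdc33 gave 0.39 and no call (adjusted p = 0.058, limma). Agr3, a disulfide isomerase of ciliated cells that acts on beat frequency, rose by 0.92 ± 0.22, with 7 of 8 mice above every younger mouse. Without 1-month replicate 3 or 12-month replicate 7 its adjusted p was 0.0569 or 0.0615, and Efcab10 lost its call without any one of 4 arrays, 1-month replicates 3 and 4 and 12-month replicates 7 and 8 (adjusted p up to 0.0775, limma). Proteins of the central pair (Spag17, 0.56, and Spef2, 0.60), of dynein arm docking (Armc4, 0.62) and of the link between doublets (Drc3, 0.46) rose as well, all named after their values were seen, as were Sntn (0.76), of the ciliary tip, and Cdhr3 (0.57), a cadherin of ciliated cells.

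Among regulators of the ciliated state, Foxj1, the transcription factor that starts the motile cilium programme, was at 6.31, 6.56 and 7.13 at 1 month and at 6.77, 7.08 and 7.35 at 12 months, a difference of 0.47 ± 0.15 that did not pass (adjusted p = 0.107), though it did without 1-month replicate 1 (0.54, adjusted p = 0.048). Rfx3 and Mcidas, which act in the same programme, differed by 0.23 and -0.03. Of 20 club and secretory cell genes 0 passed (median 0.06), and of 14 mucous cell genes 0 passed (median 0.05). Averaged over its 25 genes, the ciliated list ran from 6.10 to 6.70 in the 1-month mice and from 6.47 to 7.09 in the 12-month mice. Apart from 12-month replicate 2, every 12-month mouse lay above every 1-month mouse, the next lowest being at 6.82. The list had 14 genes called without that array, 3 without 1-month replicate 3 and 5 without 12-month replicate 6, with medians of 0.56, 0.45 and 0.48. Of all genes 1.39%, 0.302% and 0.419% rose in these settings, so the overall count moved as well. Arrays without the word replacement alone called 2 of the list and arrays with it 0, with medians of 0.50 and 0.43. Of all genes 0.131% and 0.00451% rose there. Without the 3 muscle-bearing 1-month lungs 12 rose, beside 1.13% of all genes, with a median of 0.60. In whole lung, more ciliated cells and more of these transcripts per ciliated cell cannot be told apart, and the same holds for the cell type lists that follow.

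**Figure D2:**
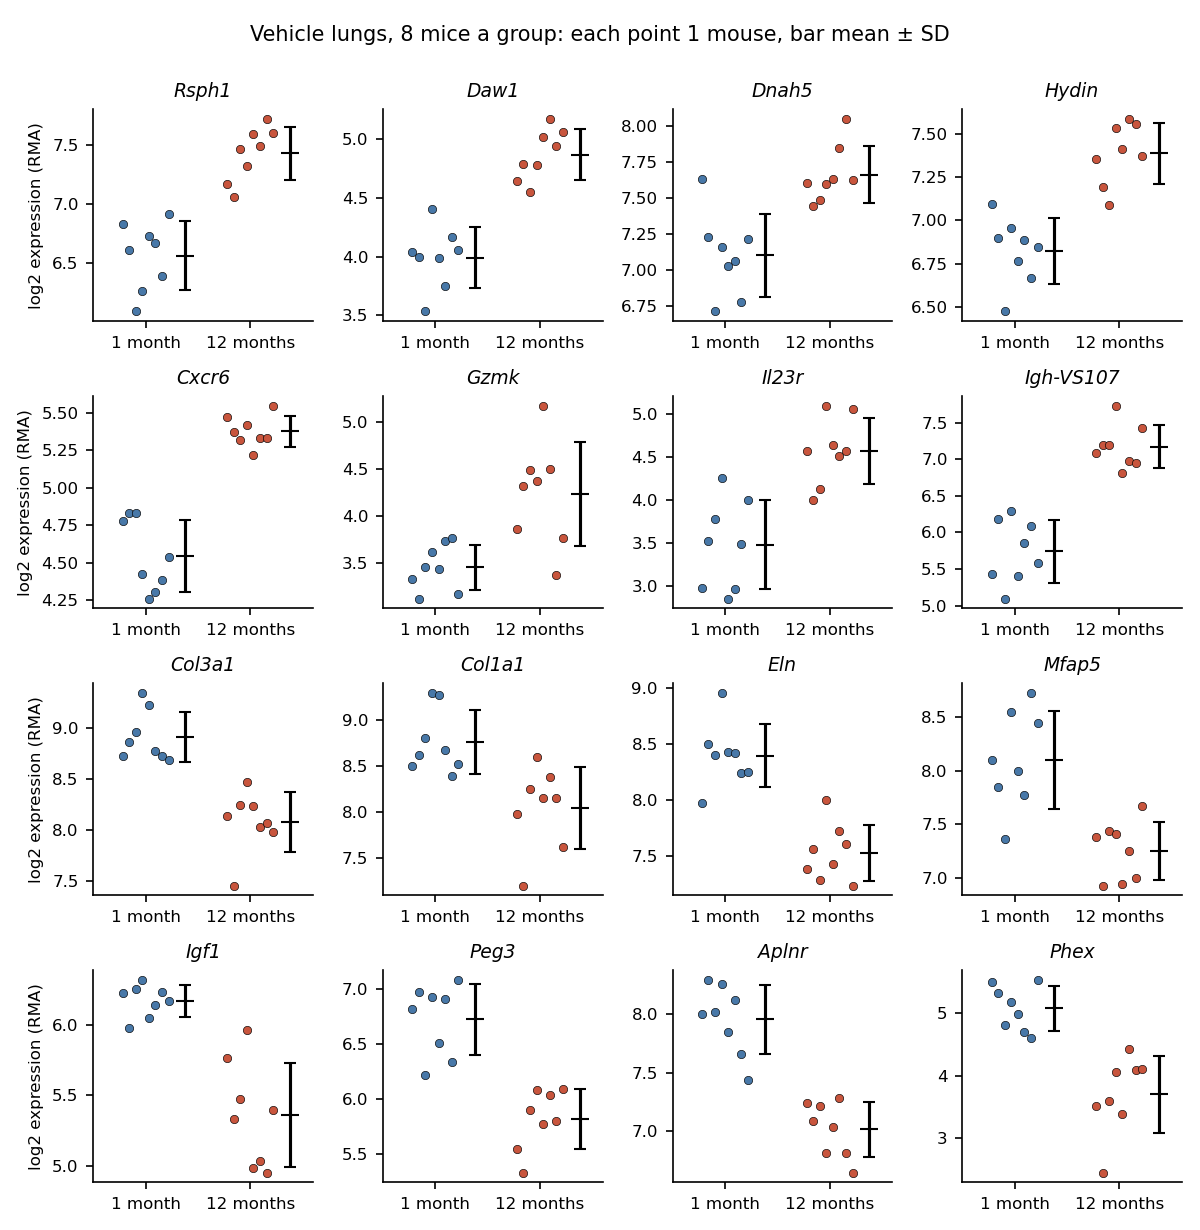
Log2 expression of 16 genes in the 8 DM mice of 1 month (blue) and the 8 of 12 months (red), each point 1 mouse, with the mean and SD beside them. The upper 2 rows hold cilium and lymphocyte genes that rose. The lower 2 rows hold matrix and growth genes, Aplnr and Phex, all of which fell. The vertical axes differ between genes and do not start at 0.

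Part of the collagen genes fell. Of 24 collagens 7 fell and 0 rose, beside 0.437% of all genes that fell, and the list median was -0.30. Col3a1, the chain of type III collagen, was at 8.69, 8.82 and 9.35 in the 1-month mice and at 7.46, 8.11 and 8.47 in the 12-month mice. Its groups did not overlap, and it fell by 0.84 ± 0.15 (adjusted p = 0.000213, limma), a 1.79-fold lower signal. Col1a1, of type I collagen, was at 8.40, 8.65 and 9.30 and then at 7.19, 8.15 and 8.60, so that its groups overlapped, and fell by 0.72 ± 0.17 (adjusted p = 0.00958). Its partner chain Col1a2 fell by 0.58 ± 0.15, a call that was lost without any one of 6 arrays (adjusted p up to 0.0934, limma). Col14a1, Col6a1, Col6a2 and Col5a2 fell by 0.55 to 0.61. The list had 4 genes called without 12-month replicate 2 or without 1-month replicate 5, and 5 without the 3 muscle-bearing 1-month lungs (median -0.34). Of all genes 0.379%, 0.428% and 0.406% fell in these settings. Averaged over 16 skeletal muscle genes, 0 of which passed, the 1-month lungs were at 3.37 to 6.73 and the 12-month lungs at 3.26 to 4.45. Col1a1 was -0.85 without those 3 lungs and -0.59 without both arrays of lowest correlation (adjusted p = 0.0835). The arrays without the word replacement gave -0.33 for Col1a1 and -0.31 for Col1a2, and those with it -1.21 and -0.90, none of these past the test, with the list median at -0.18 and -0.51. The basement membrane chain Col4a1 (-0.26) and Col8a1 (0.36) did not pass.

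The elastic fibre list moved in a single direction: all 17 measured genes had a lower mean at 12 months, beside 10995 of all 22180 genes. Of the 17, 3 fell past the test, beside 0.437% of all genes, and the list median was -0.28. Eln, which encodes elastin itself, was at 7.97, 8.41 and 8.96 in the 1-month mice and at 7.23, 7.49 and 8.0 in the 12-month mice, of which 7 of 8 lay below every younger mouse. It fell by 0.87 ± 0.20 (adjusted p = 0.00599). Mfap5, a protein of the microfibrils on which elastin is laid, was at 7.36, 8.05 and 8.73 and then at 6.93, 7.31 and 7.67 (-0.85 ± 0.16, adjusted p = 0.00054), with more overlap. Fbln1, a fibulin, fell by 0.60 ± 0.13. The crosslinking enzyme Lox differed by -0.16 ± 0.12 and did not pass. The count of the list was also 3 without any single array and without the 3 muscle-bearing lungs. Of all genes 0.261% to 0.609% fell without a single array and 0.406% without those 3 lungs.

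Other matrix genes were lower in the same direction. Of 23 proteoglycans and matrix glycoproteins 4 fell, 0 rose and 22 had a lower mean. Of all 22180 genes 0.437% fell and 10995 had a lower mean. Tnc, tenascin C, an adhesion-modulating protein of growing and wounded tissue, was at 5.38, 6.24 and 6.54 at 1 month and at 4.83, 5.28 and 5.80 at 12 months (-0.81 ± 0.18, adjusted p = 0.00457). Hspg2, the basement membrane proteoglycan perlecan, fell by 0.52 ± 0.13, Nid1, which links laminin to collagen IV, by 0.42 ± 0.12, and Sparc, a collagen-binding protein, by 0.34 ± 0.08. The list count was 2 without 1-month replicate 2, where 0.32% of all genes fell. Hspg2 lost its call without any one of 4 arrays, 1-month replicates 2, 4 and 5 and 12-month replicate 8 (adjusted p up to 0.09, limma). Mmp2, a gelatinase, was the only 1 of 20 proteases and inhibitors past the test, at 8.26, 8.61 and 9.36 and then at 7.36, 8.10 and 8.32 (-0.75 ± 0.15, adjusted p = 0.00206). Genes that fold and process collagen did not pass in any of 18 cases, with a median of -0.09; Serpinh1, the collagen chaperone, was at -0.34 ± 0.13 (adjusted p = 0.19). Spon2, a secreted matrix protein, fell by 0.96 ± 0.18, and 7 of 8 older mice lay below every younger one.

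**Figure D3:**
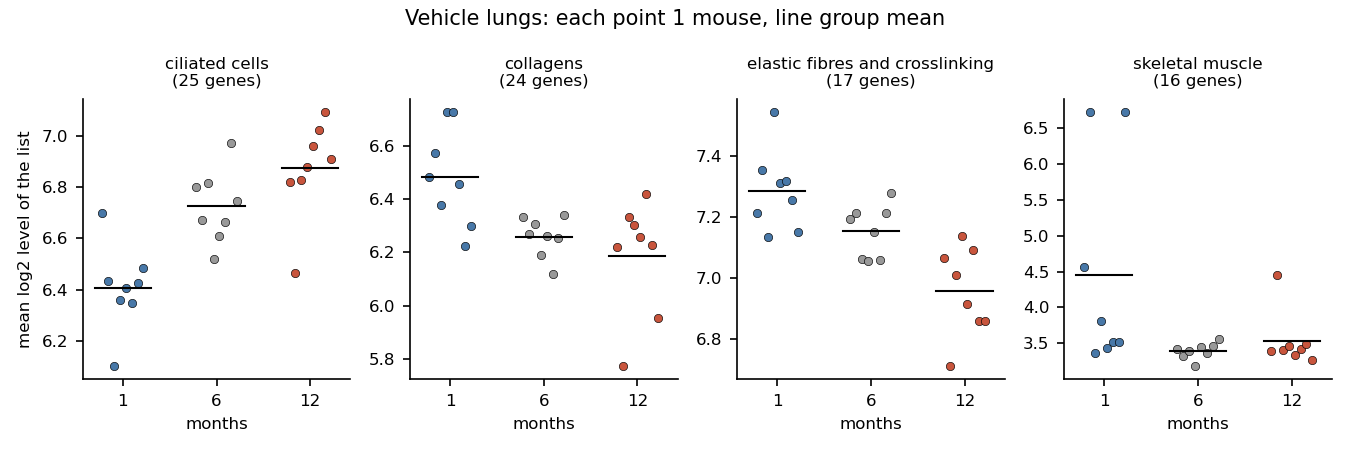
Mean log2 level of 4 gene lists in each DM mouse at 1, 6 and 12 months, with the group mean as a line. On average the 12-month mice lie higher in ciliated cells (6.47 to 7.09 against 6.10 to 6.70) and lower in elastic fibres and collagens. Of 8 mice of 12 months, 7 lie below every 1-month mouse in elastic fibres and 3 in collagens. In both lists 12-month replicate 2 is the lowest mouse. The skeletal muscle panel shows 3 high mice at 1 month and 1 at 12 months.

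The cell types that make matrix did not move as whole lists. Of 23 fibroblast genes 3 fell, beside 0.437% of all genes. The list median was -0.06, close to the 0.00 of all genes, with 10 members above 0. The 3 were Pdgfrb, the receptor of platelet-derived growth factor B (-0.66 ± 0.16), Col14a1 and Cd34 (-0.32 ± 0.08), a surface protein of progenitor-like stromal and endothelial cells. Pdgfra, the receptor that marks most lung fibroblasts, was at -0.08. Without 1-month replicate 3 or 12-month replicate 8 the adjusted p of Pdgfrb was 0.0735 or 0.0517. Without the 3 muscle-bearing 1-month lungs the list had 1 gene called, beside 0.406% of all genes that fell, and a median of 0.01. Of 22 genes of smooth muscle and pericytes 0 passed, with a median of -0.13.

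Of 18 genes of insulin-like growth factor (IGF) signalling 2 fell and 0 rose, beside 0.437% and 0.681% of all genes, with a median of -0.14. Igf1, insulin-like growth factor 1, was at 5.98, 6.20 and 6.32 in the 1-month mice and at 4.95, 5.36 and 5.96 in the 12-month mice, without overlap (-0.81 ± 0.18, adjusted p = 0.00556). Igfbp7, a secreted protein related to the IGF-binding proteins, fell by 0.37 ± 0.10, a call lost without any one of 1-month replicates 4 and 6 and 12-month replicates 5 and 8 (adjusted p up to 0.105, limma), while Igf1r, the receptor, was at 0.24 and Igf2 at 0.22, neither past the test. Genes of the imprinted growth network are expressed from the copy of 1 parent and are known to be shut down as young mammals stop growing. Of 17 measured, 2 fell and 0 rose, beside the same shares of all genes. Peg3 was at 6.22, 6.87 and 7.09 and then at 5.33, 5.86 and 6.09, without overlap (-0.90 ± 0.16, adjusted p = 0.000156), and Mest at 5.56, 6.06 and 6.72 and then at 4.55, 5.20 and 5.83 (-0.82 ± 0.15, adjusted p = 0.000223). Dlk1, another member of that network, was at -0.01. The cell cycle list held 0 called of 33, although 30 had a lower mean, beside 10995 of all 22180 genes, and the median was -0.13. Mki67 was at -0.18 ± 0.14 and Cdk1 at -0.01 ± 0.21. Ect2, a regulator of cell division that is no member of that list and was picked after its values were seen, fell by 0.50 ± 0.12. The senescence and p53 list held 0 called of 19 (median 0.05), with Cdkn2a at 0.09 ± 0.13 and Cdkn1a at -0.08 ± 0.17.

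In the endothelium a ligand and its receptor fell. Aplnr, the apelin receptor of capillary and venous endothelium, was at 7.44, 8.01 and 8.29 in the 1-month mice and at 6.65, 7.06 and 7.28 in the 12-month mice. No 12-month mouse reached the lowest 1-month mouse, and the gene fell by 0.94 ± 0.16 (adjusted p = 0.000156, limma), a 1.92-fold lower signal. Apln, the peptide that binds it, was at 6.74, 7.41 and 7.53 and then at 6.01, 6.49 and 6.96 (-0.80 ± 0.18, adjusted p = 0.00599), with 1-month replicate 8 far below the others of its group. Kit, a receptor of general capillary cells and of mast cells, fell by 0.37 ± 0.09 without overlap (adjusted p = 0.052 without 12-month replicate 3). These were the 3 called of 24 capillary and general endothelium genes, beside 1.12% of all genes called. The list median was -0.10, and the pan-endothelial genes Pecam1 and Cdh5 were at -0.06 and -0.16. Of 18 genes of large vessel and lymphatic endothelium 0 passed.

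T cell genes rose in part. Of 18 genes of experienced and regulatory T cells 3 rose, beside 0.681% of all genes, and 0 fell, with a median of 0.21. Cxcr6, a chemokine receptor of tissue-resident T cells, was at 4.26, 4.48 and 4.83 in the 1-month mice and at 5.22, 5.35 and 5.55 in the 12-month mice. Its groups were far apart for their spread, and the difference was 0.83 ± 0.13 (adjusted p = 1.94e-05, limma). Gzmk, a granzyme known from T cells of old mice, was at 3.12, 3.45 and 3.76 and then at 3.37, 4.34 and 5.17 (0.78 ± 0.19, adjusted p = 0.0133), and 7 of 8 older mice lay above every younger one. Without 12-month replicate 5 it was 0.64 (adjusted p = 0.0775). Cxcr3, another receptor of effector T cells, rose by 0.49 ± 0.13. General T cell genes did not pass in any of 15 cases (median 0.20), with Cd3e at 0.20 ± 0.16 and Cd8b1 at 0.51 ± 0.18 (adjusted p = 0.17). Foxp3 was at -0.17 and did not pass. Il23r, the receptor chain for interleukin 23, was among the largest rises of all genes, at 2.86, 3.51 and 4.26 and then at 4.0, 4.57 and 5.09 (1.09 ± 0.20, adjusted p = 0.000537). The natural killer and cytotoxic list leaned the other way, with 11 of 13 means lower, beside 10995 of all 22180 genes. Its median was -0.23, and 1 gene fell, beside 0.437% of all genes. This was Ncr1, the receptor NKp46, at 6.18, 6.60 and 6.94 and then at 5.40, 5.85 and 6.01, without overlap (-0.76 ± 0.17, adjusted p = 0.00462); Prf1, perforin, was at -0.56 ± 0.17 (adjusted p = 0.0718).

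Of the 6 immunoglobulin genes measured, 1 rose, beside 0.681% of all genes. Igh-VS107, a heavy chain variable segment, was at 5.09, 5.72 and 6.29 in the 1-month mice and at 6.81, 7.14 and 7.73 in the 12-month mice, the largest rise among named genes past the test (1.43 ± 0.40, adjusted p = 0.0478). The groups did not overlap, yet the call was lost without any one of 15 of the 16 arrays (adjusted p up to 0.126), and the mean of its features gave 0.80 (adjusted p = 0.58). On the 16 arrays alone the adjusted p was 0.00158, and without the 3 muscle-bearing lungs it was 0.0864. Segments of this kind are near copies of each other, so which of them a feature measures is uncertain. Jchain, the joining chain of secreted antibodies, was at 3.73, 5.45 and 7.94 and then at 5.82, 7.16 and 8.96 (1.56 ± 0.46) and did not pass (adjusted p = 0.069), though it did without any one of 1-month replicates 4 and 8 and 12-month replicates 2 and 5 (1.64 to 1.87). None of 18 plasma cell genes passed, and Mzb1 was at 0.36 ± 0.19. B cell genes and MHC class II genes had 0 of 17 and 0 of 11 called. Of 18 neutrophil genes 0 passed, with S100a9 at 1.00 (adjusted p = 0.0756) and S100a8 at 0.82.

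A single alveolar macrophage gene fell. Siglecf, a lectin of alveolar macrophages and eosinophils, was at 5.21, 5.92 and 6.34 in the 1-month mice and at 4.71, 5.38 and 5.75 in the 12-month mice (-0.66 ± 0.17, adjusted p = 0.0208). In the alveolar macrophage list 14 of 17 means were lower, beside 10995 of all 22180 genes, and the median was -0.25. Siglecf was the only member of that list past the test, beside 0.437% of all genes that fell, and its groups overlapped. The call was lost without any one of 1-month replicates 1 and 8 and 12-month replicates 2 and 4 (adjusted p up to 0.062), and without the 3 muscle-bearing lungs it was -0.51 (adjusted p = 0.14). Mmp12 and Gpnmb, known from macrophages laden with debris, were at -0.12 ± 0.35 and 0.04 ± 0.31. The complement and interferon lists held 0 called of 15 and 0 of 19. Cxcl14, a chemokine of epithelium and stroma, fell by 0.45 ± 0.11 (-0.36, adjusted p = 0.095, without 1-month replicate 4), and Cd24a, an adhesion protein of epithelial and immune cells that the dendritic cell list holds, rose by 0.46 ± 0.10.

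In the alveolar epithelium 3 of 20 type 2 cell genes fell and 19 had a lower mean, with a median of -0.18. Of all 22180 genes 0.437% fell and 10995 had a lower mean. Lyz1, a lysozyme, was at 9.79, 10.09 and 10.49 in the 1-month mice and at 8.98, 9.19 and 9.76 in the 12-month mice, without overlap (-0.84 ± 0.19, adjusted p = 0.00734). Its near copy Lyz2 was at -0.03, and how far features of these genes read each other's transcripts was not tested. Lamp3, of the lamellar bodies that store surfactant, fell by 0.41 ± 0.10 and Slc34a2, the phosphate transporter of type 2 cells, by 0.33 ± 0.08. Without the 3 muscle-bearing lungs Lamp3 was -0.34 (adjusted p = 0.106). The surfactant proteins themselves did not pass, with Sftpc at -0.08 ± 0.05 and Sftpb at -0.06. All 18 type 1 cell genes had a lower mean and 0 passed (median -0.21), with Ager at -0.24 ± 0.22. Averaged over these 18 genes, 12-month replicates 4 and 8 were at 8.26 and 9.03, while the other 6 lay between 9.47 and 9.77 and the 1-month mice between 9.49 and 9.77. Without replicate 4 the median difference was -0.07. Centring the arrays on their medians lowered the median of all genes by 0.03 and called 4 type 2 genes. Of all genes it called 0.933% higher and 0.956% lower.

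Several of the largest falls belong to none of these groups. Phex, an endopeptidase of phosphate handling, was at 4.61, 5.08 and 5.54 in the 1-month mice and at 2.44, 3.83 and 4.42 in the 12-month mice. It fell by 1.38 ± 0.19 (adjusted p = 2.78e-07), a 2.61-fold lower signal, and its groups did not overlap. Veph1 was at 3.91, 4.29 and 4.77 and then at 2.85, 3.33 and 3.57 (-1.02 ± 0.14, adjusted p = 2.56e-07), and Mboat2, which attaches fatty acids to phospholipids, fell by 0.98 ± 0.16, both without overlap. Capn6, a calpain without protease activity, fell by 0.93 ± 0.20 and Prdm8, a transcriptional regulator, by 0.91 ± 0.22, the latter not past the test without any one of 1-month replicate 6 and 12-month replicates 3 and 5 (adjusted p up to 0.076). H2bc12, an H2B histone of a family of near copies, fell by 1.09 ± 0.30 (adjusted p = 0.0473), and this call was lost without any one of 11 arrays (adjusted p up to 0.155).

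Cyp1a1, which oxidises aromatic compounds, had the largest fall among genes past the test, from 5.67, 6.10 and 8.71 at 1 month to 3.77, 4.66 and 5.58 at 12 months (-1.86 ± 0.45, adjusted p = 0.0133). All 12-month mice lay below all 1-month mice, but 1-month replicate 4 was high at 8.71, and without it the difference was -1.53 (adjusted p = 0.0805). Sprr1a, of the squamous cell envelope, was at 9.21 in 1-month replicate 2, the lung with the high Krt4, and at 4.49 to 5.56 in the others of its group. At 12 months it was at 3.12, 3.92 and 4.74 (-1.77 ± 0.44, adjusted p = 0.0193), and without that lung the difference was -1.27 (adjusted p = 0.15). It also failed to pass without 12-month replicate 7 or 8 (-1.67 and -1.65). It was the only 1 of 16 basal and squamous genes past the test, beside 0.437% of all genes that fell. Of 22 genes of xenobiotic metabolism 1 fell, Cyp1a1, and 1 rose, beside 0.437% and 0.681% of all genes. The gene that rose was Sult1d1, a sulfotransferase (0.98 ± 0.28, adjusted p = 0.0499, limma), a call lost without any one of 13 arrays.

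Other genes that rose include A2ml1, a protease inhibitor, at 5.46, 6.63 and 7.52 in the 1-month mice and 7.28, 7.74 and 8.19 in the 12-month mice (1.24 ± 0.26, adjusted p = 0.00238). Unc79, part of a sodium leak channel complex, was at 4.43, 4.82 and 5.34 and then at 5.49, 5.83 and 6.09, without overlap (0.97 ± 0.15, adjusted p = 1.94e-05). Pcdhb1, a clustered protocadherin, rose by 1.01 ± 0.21 and Bbox1, the last enzyme of carnitine synthesis, by 0.94 ± 0.20. Of 18 clock genes 1 rose and 1 fell, beside 0.681% and 0.437% of all genes. Bhlhe41 rose (0.56 ± 0.16, adjusted p = 0.0489, limma) and Npas2 fell (-0.76 ± 0.20, adjusted p = 0.0317, limma). Bhlhe41 lost its call without any one of 11 arrays and Npas2 without any one of 8. Tbata rose by 0.62 ± 0.15 as the only called gene of the thymocyte list (median -0.11), a call lost without 1-month replicate 3 (0.52, adjusted p = 0.095). Its list mates Dntt and Ptcra stayed below 4.34, the highest array median. In 30 of the 51 lists no gene was called, among them skeletal muscle, whose median was -0.98 and was 0.00 without the 3 muscle-bearing 1-month lungs, and cardiac muscle, with a median of 0.32.

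Of the DM mice killed at 6 months, 8 were available. Between 1 and 6 months 30 genes passed (0.135% of all; 0.117% higher and 0.018% lower), and between 6 and 12 months 53 (0.239%; 0.0361% higher and 0.203% lower). These comparisons share mice with the main one, on which the 248 genes were chosen, so their steps are given side by side as values. Among the genes that rose the median step was 0.42 from 1 to 6 months and 0.22 from 6 to 12 months, and among those that fell -0.24 and then -0.30. The mean steps of single genes differed in size. Hydin had gained 0.56 by 6 months and 0.01 after it, and Tekt1 0.46 and then -0.01, while Bbof1 gained 0.46 and then 0.55 and Rsph1 0.49 and then 0.37. Among matrix genes Col3a1 moved by -0.60 and then -0.24 and Mfap5 by -0.58 and then -0.27. Eln moved by -0.13 and then -0.75, Apln by -0.05 and then -0.75, Aplnr by -0.16 and then -0.77 and Kit by 0.02 and then -0.39. Veph1 had fallen by 0.89 at 6 months (adjusted p = 3.93e-05) and moved by -0.13 after it. Whether the early and late steps of a gene differ from each other was not tested.

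**Figure D4:**
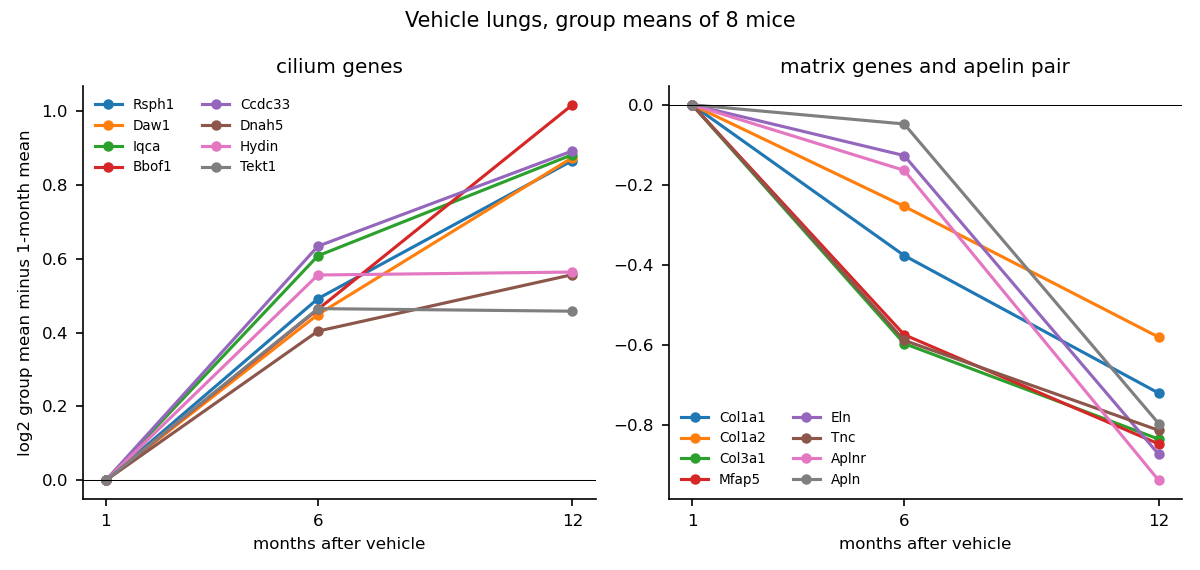
Mean log2 level of the 8 DM mice at 1, 6 and 12 months, each gene set to 0 at 1 month, for 8 cilium genes (left) and 8 matrix and apelin genes (right). The means of Hydin and Tekt1 change little after 6 months, and those of Eln, Aplnr and Apln are within 0.16 of the start at 6 months and 0.75 to 0.77 lower at 12 than at 6 months. Whether the early and late steps differ was not tested.

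The same contrast of 12 months with 1 month in mice given MWCNT shares no array with the DM mice, though it shares the spread estimated by the model and the times of killing. At 1 µg, the lowest dose, 8 mice of 1 month and 6 of 12 months were available, and at 10 µg 8 and 8. All 151 genes that rose in DM were also higher at 12 months in the 1 µg mice, a direction that 49.9% of all genes took, and 84 of them passed the test there, where 1.59% of all genes did. These 84 are 55.6% of the DM genes and 35% of the 240 (1.08% of all genes) that rose with 1 µg. All 97 genes that fell in DM were lower in the 1 µg mice, and 56 passed, which is 57.7% of the DM genes and 50.0% of those that fell there (0.505% of all genes). In the 10 µg mice, where 1.8% of all genes passed, 151 of 151 were higher, beside 58.1% of all genes, with 86 past the test (25.4% of the 339 that rose, 1.53% of all genes), and 91 of 97 were lower, beside 41.9% of all genes, with 30 past it (49.2% of the 61 that fell, 0.275%).

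Among single genes, Rsph1 was at 6.58, 6.84 and 7.13 in the 1 µg mice of 1 month and at 7.29, 7.71 and 8.08 in those of 12 months (0.82, adjusted p = 0.00147, limma). Phex was at 4.93, 5.14 and 5.69 and then at 3.12, 3.65 and 4.58 with 1 µg, and at 4.99, 5.17 and 5.50 and then at 3.03, 3.62 and 4.22 with 10 µg. These were differences of -1.50 and -1.60, beside -1.38 in DM. Aplnr moved by -1.09 and -0.89, Igf1 by -1.26 and -0.93 and Col3a1 by -0.86 and -0.97, all past the test. Eln moved by -0.70 and -0.66 and did not pass at either dose (adjusted p = 0.0585 and 0.0515). The ciliated list had 14 of 25 called higher with 1 µg (median 0.57) and 11 with 10 µg (median 0.46), beside 1.08% and 1.53% of all genes. Of 24 collagens 6 and 9 were called lower (medians -0.30 and -0.40), beside 0.505% and 0.275% of all genes. Cxcr6 was at 0.65 (adjusted p = 0.0035) with 1 µg and at 0.36 (adjusted p = 0.136) with 10 µg, and Ncr1 at -0.83 (adjusted p = 0.00347) and -0.18 (adjusted p = 0.614). Cyp1a1 did not pass at either dose (-0.68 and -1.08), nor did Igh-VS107 (1.42 and 0.91).

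A test of whether the change over time differed between MWCNT and DM mice called 0 of 22180 genes at either dose (limma). At an unadjusted p under 0.05 it gave 1.42% of all genes for 1 µg and 4.35% for 10 µg, against the 5% that this threshold gives on average when nothing differs. The genes that rose in DM had median differences of 0.63 in DM, 0.62 with 1 µg and 0.54 with 10 µg, and those that fell -0.55, -0.49 and -0.31. Since the genes were chosen on the DM values, smaller medians in other mice do not by themselves show a difference between the groups. Of the 97 genes that fell, 22 had an unadjusted p under 0.05 in the test of a different change at 10 µg and 1 at 1 µg (limma). Of the 151 that rose, 5 and 1 did. These counts rest on the same choice of genes, and what lies behind them was not tested. A test that calls no gene does not show that the changes are equal.

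**Figure D5:**
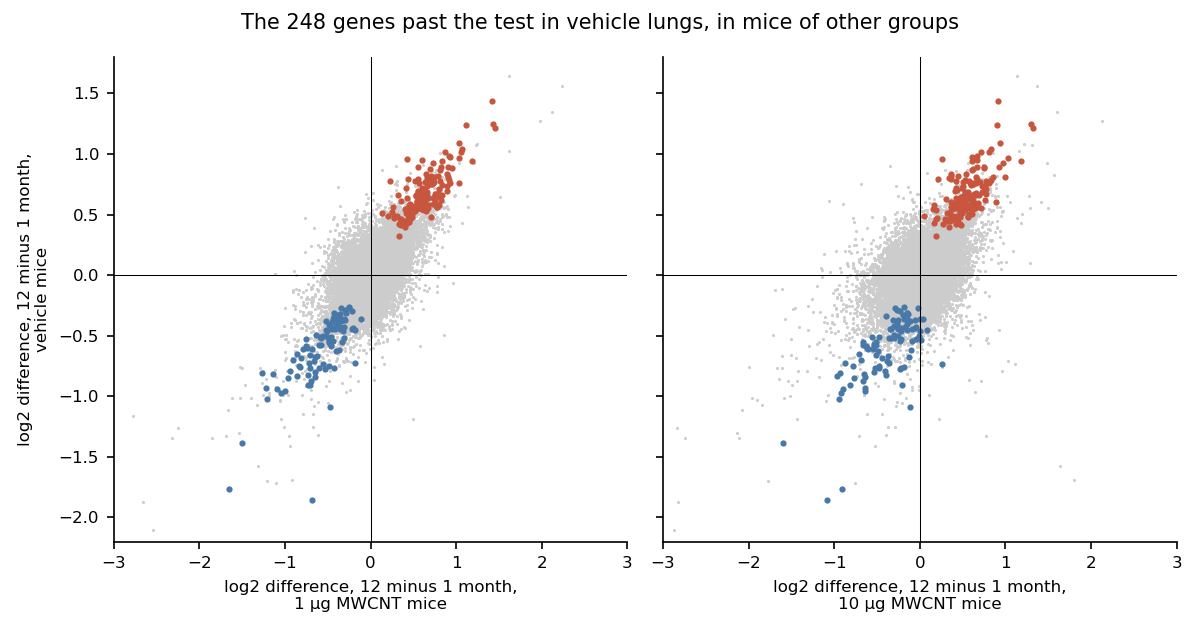
Log2 difference of 12 months minus 1 month in DM mice (vertical) against that in 1 µg (left) and 10 µg (right) MWCNT mice, each point 1 gene. The 151 red and 97 blue genes passed the test in DM. All lie on the side of 0 given by their DM direction with 1 µg, and all but 6 of the blue ones with 10 µg.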

How the data were processed

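Lung RNA of 138 mice was measured on 139 Affymetrix arrays, and 16 of them, DM at 1 and 12 months, are the main comparison. The deposited log2 values were used as given. The submitters' processing notes name RMA, oligo and limma. Versions, roles and the genome build: not given in the sources used here. Values ran from -0.05 to 13.28, with array medians of 4.01 to 4.34. Among others, the group medians of Gzmk, Il23r and Morn5 at 1 month and of Phex and Veph1 at 12 months lay below these array medians. How far background signal limits such low values was not tested. Of 41345 features, 23521 had a single gene symbol, 1814 had several and 16010 had none, per the platform annotation, and 23328 of the first matched RefSeq (GRCm38.p6) by Entrez number. The feature with the highest mean was kept for each gene, which left 22180 genes and set 1341 features aside. The 2 arrays of 1 mouse (1 µg, 1 month) were averaged. One linear model over 18 groups (limma 3.58.1, R 4.3.3, 120 residual degrees of freedom) gave two-sided moderated tests with Benjamini-Hochberg adjustment over all genes, and it was tested on simulated data. Levels are given as lowest, median and highest of a group. The number of arrays limits the precision.

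Labels number the mice, so replicates are separate animals, and replicates are numbered here by accession. The comparisons, the members and the 51 lists (948 of 1046 entries measured) were chosen with earlier results of these data known. Genes named are the 15 highest and 15 lowest past the test, the 2 largest per list past it and 45 panel genes, of which 38 were measured. Predicted, olfactory and small RNA genes were passed over, and at most 5 antibody or T cell receptor segments were taken. Further members of a list, and the genes named in other sentences, were chosen after their values were seen. Promoters came from RefSeq and covered 16990 of the genes. Other spellings of the X-box were looked at and are not reported. Figures were drawn with matplotlib 3.10.9.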

Additional observations from a re-analysis of the deposited data

Results flagged for a closer look

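In 172 groups of 8 DM mice (86 named genes at 1 and at 12 months), 17 had a highest or lowest mouse whose gap to its nearest neighbour was, as a share of the range of the group, above Dixon's 95% limit. Chance gives about 1 such group in 20. Of genes past the test, 1 mouse stood apart for Cyp1a1 (8.71, 1-month replicate 4, next 6.79), Sprr1a (9.21, 1-month replicate 2, next 5.56), Apln (6.74, 1-month replicate 8, next 7.18), Npas2 (5.85, 1-month replicate 5, next 7.13) and Bbof1 (5.63, 12-month replicate 2, next 6.13). Among other genes at 1 month, 1 mouse was high for Krt4 (12.1, replicate 2, next 3.53), Clca1 (8.10, replicate 3), Marco (6.80, replicate 4) and Dbp (7.49, replicate 5). At 12 months 1 mouse was high for Acta1 (7.92, replicate 2, next 4.54), Clca1 (4.75, replicate 2), Marco (6.11, replicate 5), Cxcl13 (9.33, replicate 4), Fos (7.16, replicate 4) and Adipoq (6.35, replicate 4). One was low for Ager (9.99, replicate 4) and H2-Ab1 (10.4, replicate 7). Replicate 4 of 12 months thus stood apart for Cxcl13, Fos, Adipoq and Ager. What these mice share was not tested.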

How the results depend on the processing

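All 54 named genes past the test kept their direction in each of 1608 values under alternatives, and 1379 of these still passed. The genes were chosen on the same arrays that the alternatives reuse in whole or in part, so a kept direction is no independent support. Of the 54, 21 passed on arrays without the word replacement alone and 1 on arrays with it. Shares of genes called moved more, and are given as percentages of all 22180 genes. For DM, 0.681% higher and 0.437% lower became 0.379% and 0.162% on the 16 arrays alone, 0.131% and 0.153% on arrays without the word replacement, 0.00451% and 0.0% on arrays with it, 1.02% and 0.803% with quantile normalization, and 1.75% and 0.721% with array weights. A spline of accession order gave 1.35% higher, centring 0.956% lower, and leaving out 1-month replicates 1, 2 and 8 together 1.13% higher. Leaving out 1 array gave 0.302% to 1.39% higher and 0.261% to 0.609% lower. Leaving out both arrays of lowest correlation, chosen after seeing the data, gave 0.252% lower. With 1 µg, 1.08% higher and 0.505% lower became 2.23% and 0.794% when the model held that word, 1.65% and 1.1% with quantile normalization, and 4.06% and 2.24% with array weights. Centring gave 1.5% lower. When only the 10837 genes with a mean of at least 5 were tested, 369 were higher and 183 lower, which is 1.66% and 0.825% of all 22180 genes. With 10 µg, 1.53% higher and 0.275% lower became 0.911% and 0.586% with centring, and 0.55% were lower with quantile normalization. The tests of a different change called 0 genes under each alternative run (limma; 1.42% and 4.35% at an unadjusted p under 0.05 in the main setting). Smaller subsets hold fewer arrays; the cause of the other shifts was not tested. No paired analysis was possible because replicate numbers come from accession order and pair no mice. The number of arrays limits these results.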
